A study of Mus musculus with 5 samples.

Results

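The genes described here are 41 genes of the G1/S transition and DNA replication, chosen by name, in mouse B9 cells treated with either of 2 BRAF inhibitors or with vehicle. Each gene was read from the Affymetrix probe set that carries its symbol alone and has the highest mean over the 3 groups. Such a probe set was found for 40 of the 41 genes, of 18193 genes in all, and Chaf1a was not analysed here. All 40 also passed the filter on low signal, a mean of at least 47.4, which 10852 genes passed. B9 is a line from mouse cutaneous squamous cell carcinoma with the genotype HRAS-Q61L, an activated RAS, and every group carries it.

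The groups were cells with 1 µM vemurafenib (PLX4032, 2 arrays), cells with 1 µM PLX7904 (2 arrays) and cells with dimethyl sulfoxide, the DMSO vehicle (1 array), each for 17 h. Vemurafenib inhibits mutant BRAF and can raise ERK signalling in cells with activated RAS, and PLX7904 belongs to a later class of BRAF inhibitors made to avoid this. The arrays are labelled biological replicates of 1 cell line, and the labels do not say whether they came from separate cultures. The p-values therefore reflect only how far these arrays differ, which may be technical, and the number of arrays limits the precision. The vehicle is labelled as 0.2% DMSO, whereas the volumes given for the compounds come to 0.02%, and whether the vehicle was matched is not known. With a single DMSO array, the spread in that group was taken from the treated groups, and both comparisons with vehicle rest on it.

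A chromosome can be copied only after its origins are licensed. In G1 the origin recognition complex, CDC6 and CDT1 load the MCM2-7 ring onto DNA, and in S phase CDC45 and the GINS complex join it to form the helicase. DNA polymerase alpha with its primase starts each strand, the clamp PCNA, loaded by replication factor C, holds the polymerases in place, and ligase, histone chaperones and the methylation machinery finish the daughter strands. Many of these genes are transcribed at the end of G1 by E2F factors, once cyclin-dependent kinases have released them from RB, and RAS-ERK signalling feeds into this step through the G1 cyclins.

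With vemurafenib many of the replication genes fell against DMSO and against PLX7904. Against DMSO 19 of the 40 were called lower and 0 higher, where 5.21% of all genes tested were called lower and 5.43% higher. At an unadjusted p under 0.05 in limma there were 27 members, against 25.9% of all genes. Against PLX7904 at the same dose and time 25 were called lower and 0 higher, with 6.87% of all genes called lower and 6.43% higher, 13.3% in either direction. In both comparisons together 18 members were called lower, against 3.91% of all genes. The fall was small: the median log2 difference was -0.40 against DMSO, or 1.32 times lower, and -0.32 against PLX7904, or 1.25 times lower, while the median of all genes tested was -0.05 and -0.04. A call is an adjusted p under 0.05 in limma, and log2 differences are of signal plus a pseudocount of 3.34. Both comparisons use the same vemurafenib arrays, so they are not independent of each other.

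With PLX7904 no member was called against DMSO (0 of 40, with 0% of all genes called), and 4 members had an unadjusted p under 0.05 in limma, where 6.65% of all genes did. The median of the members was 0.02, with 18 below 0 and 22 above. Robust fitting and limma without its intensity trend also called 0 members, with 6 and 3 at an unadjusted p under 0.05 (6.85% and 5.62% of all genes in those fits). The 95% interval of a member reached 0.25 to either side at the median. A missing call here does not show that PLX7904 left a gene as it was, and a difference between the compounds rests on the direct comparison of their arrays. Both PLX7904 arrays lay below DMSO in 12 members and above it in 15, against 35.7% and 30.8% of all genes.

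**Figure D1:**
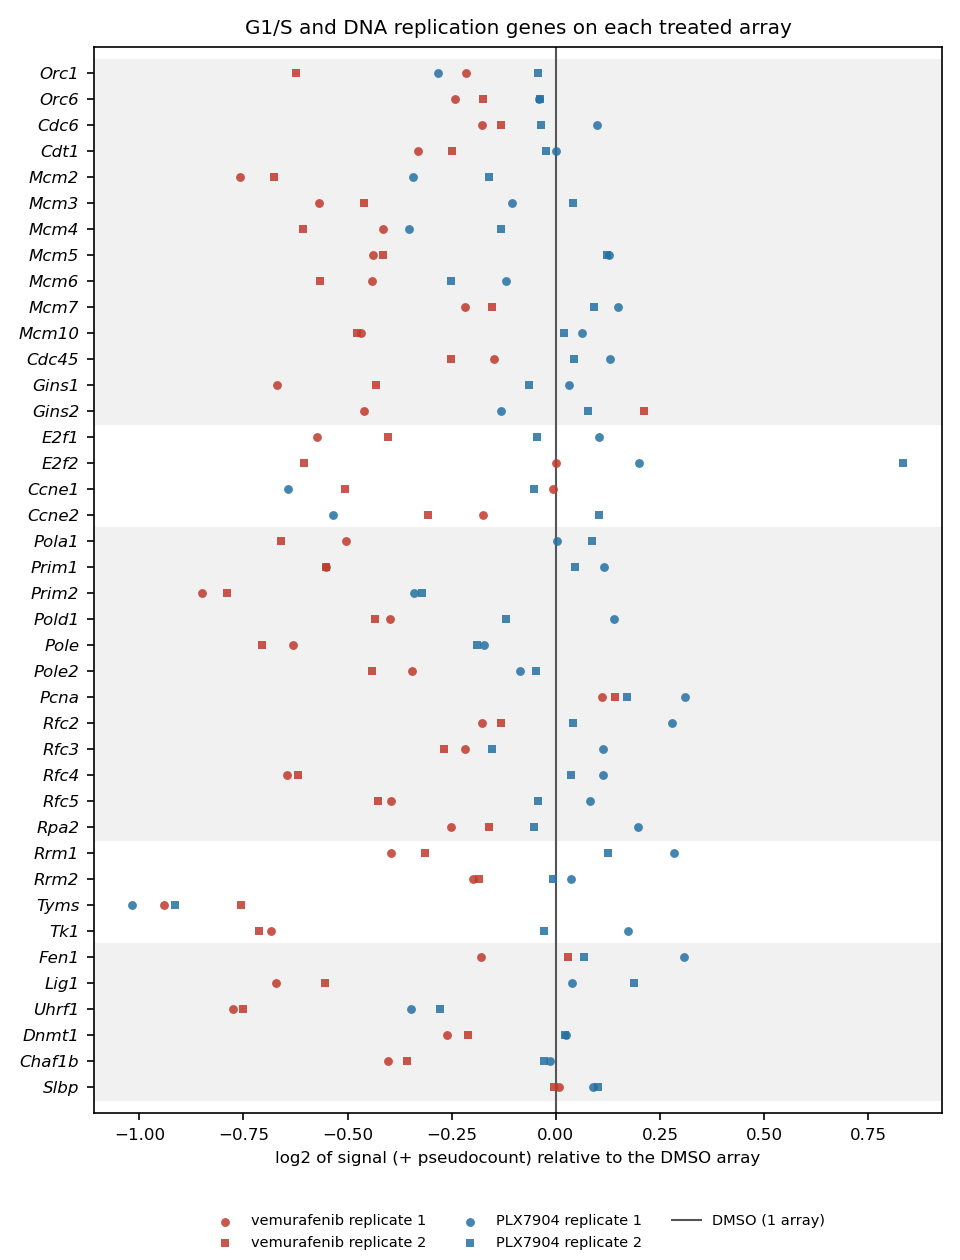
Log2 of the signal plus pseudocount on each treated array relative to the DMSO array, which is the line at 0, for the 40 members in order of role (shading separates roles). On 32 of the 40 rows both vemurafenib arrays (red) lie left of both PLX7904 arrays (blue) and of DMSO.

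On the arrays themselves, both vemurafenib values lay below the other 3 in 32 of 40 members, against 27.6% of all genes tested. The exceptions were Orc1, Gins2, Ccne1, Ccne2, Pcna, Tyms, Fen1 and Slbp. Both vemurafenib arrays were below the DMSO array in 36 members, against 47.7% of all genes. Members were mostly bright, with 20 of 40 in the brightest 25% of genes tested and 16 in the next 25%. In the brightest 25% of all genes the median difference between vemurafenib and DMSO was 0.05, and in the dimmest 25% it was -0.18, so the members fell where bright genes as a whole read slightly higher. After quantile normalization all 40 members lay below 0 against DMSO (median -0.36), and after cyclic loess too (median -0.37). In a culture, fewer cells in S phase and less transcript per cell cannot be told apart.

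Calls depended on the variance model and on centring. Without limma's trend of variance with intensity, 0 members were called in either vemurafenib comparison, with 23 at an unadjusted p under 0.05 against DMSO and 25 against PLX7904 (21.4% and 23.2% of all genes), and the log2 differences themselves are the same. Centring each array on its median left 7 of the 40 members called against DMSO and 9 against PLX7904, all lower. Of all 10852 genes tested, 227 and 307 were then called lower, in place of 565 and 745. Centring moved the median of all genes tested to 0.10 and 0.11, a shift of over 0.1. It moved the share of all calls that were higher to 77.7% in place of 51.0% and 80.0% in place of 48.4%. Centring moves every gene on an array by the same amount, so the members' distance from the median of all genes, -0.35 against DMSO and -0.29 against PLX7904, is the same by construction.

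The keratinocyte identity of the line was checked on 12 markers, of which 11 passed the filter, Krt5, Krt14 and Trp63 among them, and Krt15 did not. Their summed signal was 129188 and 129584 with vemurafenib, 126296 and 123299 with PLX7904 and 119002 with DMSO. Of markers of other cells, 1 of 6 fibroblast (Pdgfra), 1 of 5 immune (Cd68), 1 of 4 endothelial (Pecam1) and 2 of 5 melanocyte markers (Pmel and Mitf) passed, and Col1a1 and Ptprc were below the filter. Their summed signals stayed between 48.5 and 402.3 on every array, the highest being fibroblast markers with vemurafenib (402.3 and 372.8, against 194.6 and 246.4 with PLX7904 and 163.7 with DMSO), and their part in the results was not tested. Of these markers Pdgfra was called higher with vemurafenib (log2 1.53, adjusted p = 0.00327 against DMSO, and log2 0.86, adjusted p = 0.0166 against PLX7904). Pmel was called higher against DMSO (log2 2.48, adjusted p = 0.00938) and not against PLX7904 (log2 0.33, adjusted p = 0.639).

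**Figure D2:**
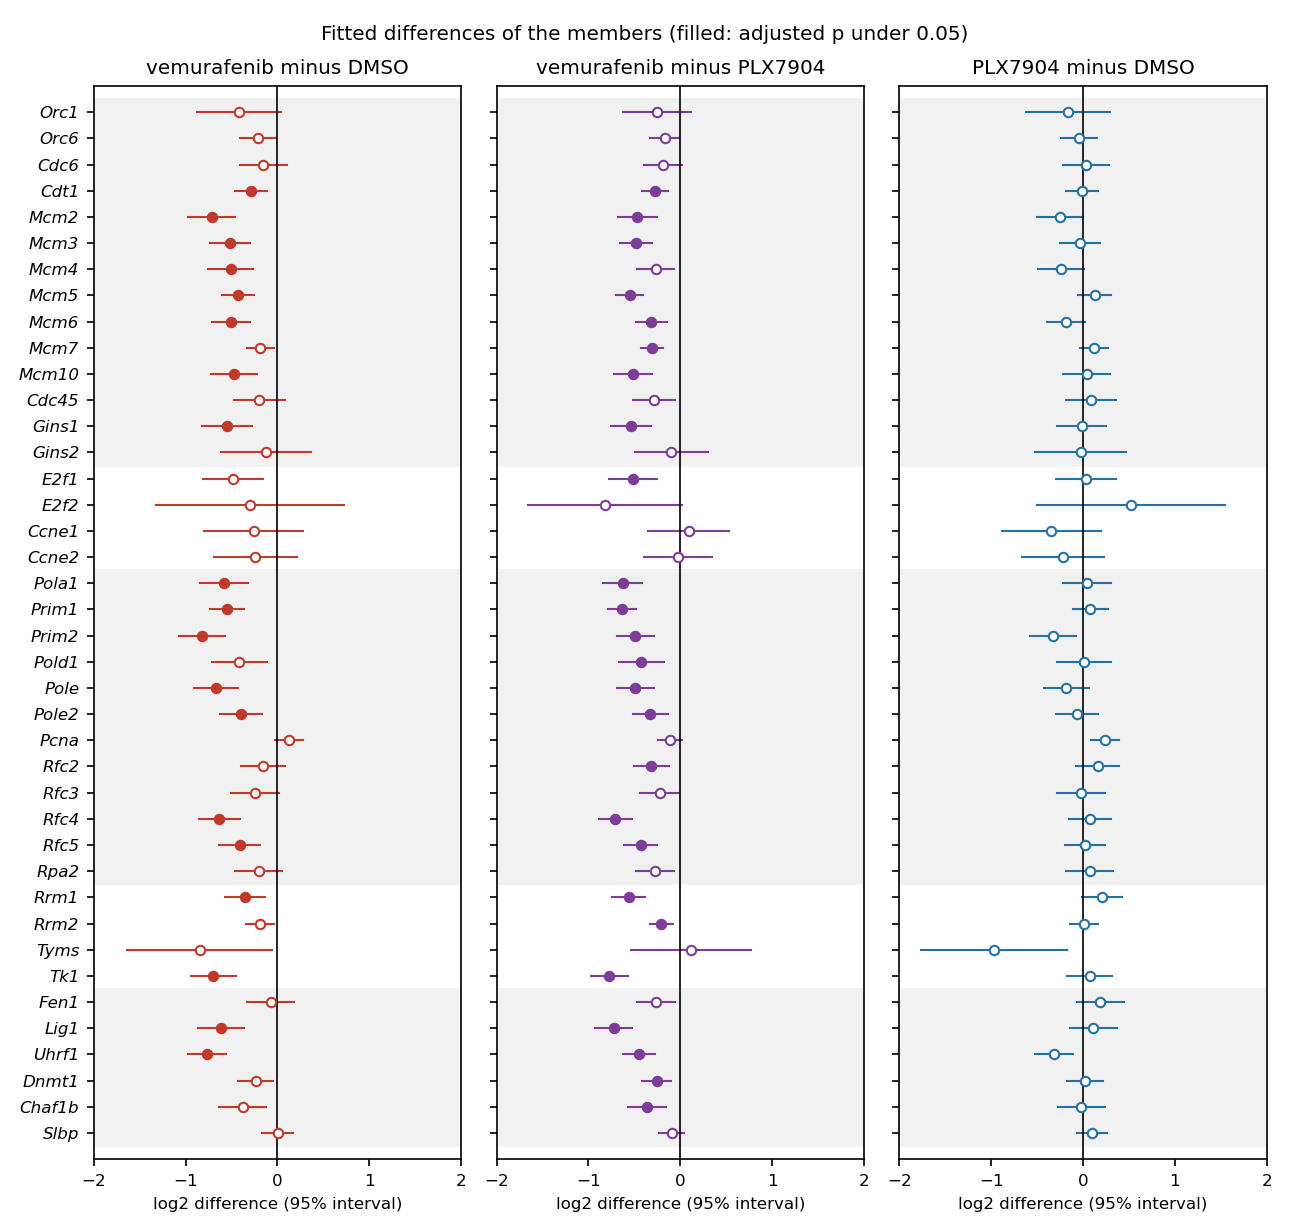
Fitted log2 differences (points) with 95% intervals (lines) of the 40 members in the 3 comparisons, filled where the adjusted p is under 0.05. Filled points lie left of 0 in the first panel (19) and in the second (25), and the third, PLX7904 minus DMSO, holds none.

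Promoters are shown because many genes of this process are known E2F targets and 26 of the 40 members were called lower in at least 1 vemurafenib comparison. RefSeq promoters (build GRCm38.p6, 250 bases before to 50 after each annotated start) were available for 34 of the 41 genes. They were searched on both strands for 4 words of the E2F site, TTTCCCGC, TTTGGCGC, TTTGCCGC and TTTCGCGC, each counted even where words overlap. One or more of these words stood in the promoter of 15 of 34 members (44.1%), against 4.98% of the 8851 genes tested that had a promoter and 2.6% of all 27025 genes with one. Among members called lower against DMSO it stood in 8 of 15 (53.3%), and among members called in neither vemurafenib comparison in 4 of 12 (33.3%). No test was made of these shares. A match is a stretch of letters and not a measured binding site, and the absence of one says only that these letters are not in the window.

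The promoters below run up to the last base before the start and are shown because they hold an E2F word there, which is in capitals (overlapping words run together). The first 5 belong to genes called lower with vemurafenib in at least 1 comparison and the last 3, Cdc6, Orc1 and Rfc3, to genes that were not called.
Mcm5, chr8:75109346-75109508, plus strand: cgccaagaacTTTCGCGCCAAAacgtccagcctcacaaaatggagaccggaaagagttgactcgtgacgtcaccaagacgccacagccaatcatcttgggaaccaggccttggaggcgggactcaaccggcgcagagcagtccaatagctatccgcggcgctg
Mcm6, chr1:128359706-128359825, minus strand: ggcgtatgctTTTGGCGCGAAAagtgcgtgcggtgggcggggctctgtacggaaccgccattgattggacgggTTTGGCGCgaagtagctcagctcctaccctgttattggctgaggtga
Mcm7, chr5:138171884-138172058, minus strand: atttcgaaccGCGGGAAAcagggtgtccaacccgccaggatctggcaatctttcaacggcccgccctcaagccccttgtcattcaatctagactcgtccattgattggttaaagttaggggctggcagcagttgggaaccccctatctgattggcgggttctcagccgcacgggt
Pola1, chrX:93632156-93632303, minus strand: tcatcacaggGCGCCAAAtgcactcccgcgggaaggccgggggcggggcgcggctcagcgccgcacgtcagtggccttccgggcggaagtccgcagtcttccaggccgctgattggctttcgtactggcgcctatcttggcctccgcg
Uhrf1, chr17:56304118-56304312, plus strand: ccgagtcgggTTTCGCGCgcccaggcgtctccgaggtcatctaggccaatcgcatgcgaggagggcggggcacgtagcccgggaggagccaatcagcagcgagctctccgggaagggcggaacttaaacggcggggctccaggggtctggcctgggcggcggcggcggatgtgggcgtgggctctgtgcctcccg
Cdc6, chr11:98908003-98908150, plus strand: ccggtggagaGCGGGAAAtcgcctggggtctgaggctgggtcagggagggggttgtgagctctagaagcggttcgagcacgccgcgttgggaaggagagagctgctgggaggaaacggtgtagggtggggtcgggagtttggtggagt
Orc1, chr4:108579354-108579453, plus strand: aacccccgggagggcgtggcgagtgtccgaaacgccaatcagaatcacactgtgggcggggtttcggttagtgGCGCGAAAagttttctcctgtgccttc
Rfc3, chr5:151651209-151651308, minus strand: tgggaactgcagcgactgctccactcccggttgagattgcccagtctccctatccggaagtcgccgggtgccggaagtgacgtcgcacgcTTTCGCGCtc

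Mcm5 and Mcm6 each carry 2 of the words overlapping by several bases on opposite strands, at positions -153 and -149 from the start in Mcm5 and -110 and -106 in Mcm6, and Mcm6 has another at -47. In Cdc6 and in Pola1 the word begins at -138, in Orc1 at -27 and in Rfc3 at -10. Dnmt1, called against PLX7904, holds one at -219 from the last of its 3 annotated starts, which is not printed. The Uhrf1 stretch precedes the second of 2 annotated starts. Cdt1, Mcm3, Pole2, Pold1, E2f2 and Lig1 hold a word only after the start, where it is not printed. Promoters of E2f1, Mcm2, Rfc4, Rrm1, Tk1 and Prim1 hold none of the 4 words in this window.

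The same windows were searched for 3 other short motifs on both strands. The CCAAT box (CCAAT) stood in 61.8% of member promoters and 43% of those of genes tested, and the GC box (GGGCGG) in 76.5% and 70.4%. The CHR element of G2/M genes (TTTGAA or TTCGAA) stood in 20.6% and 16%, and in 21.7% of all genes with a promoter.

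**Figure D3:**
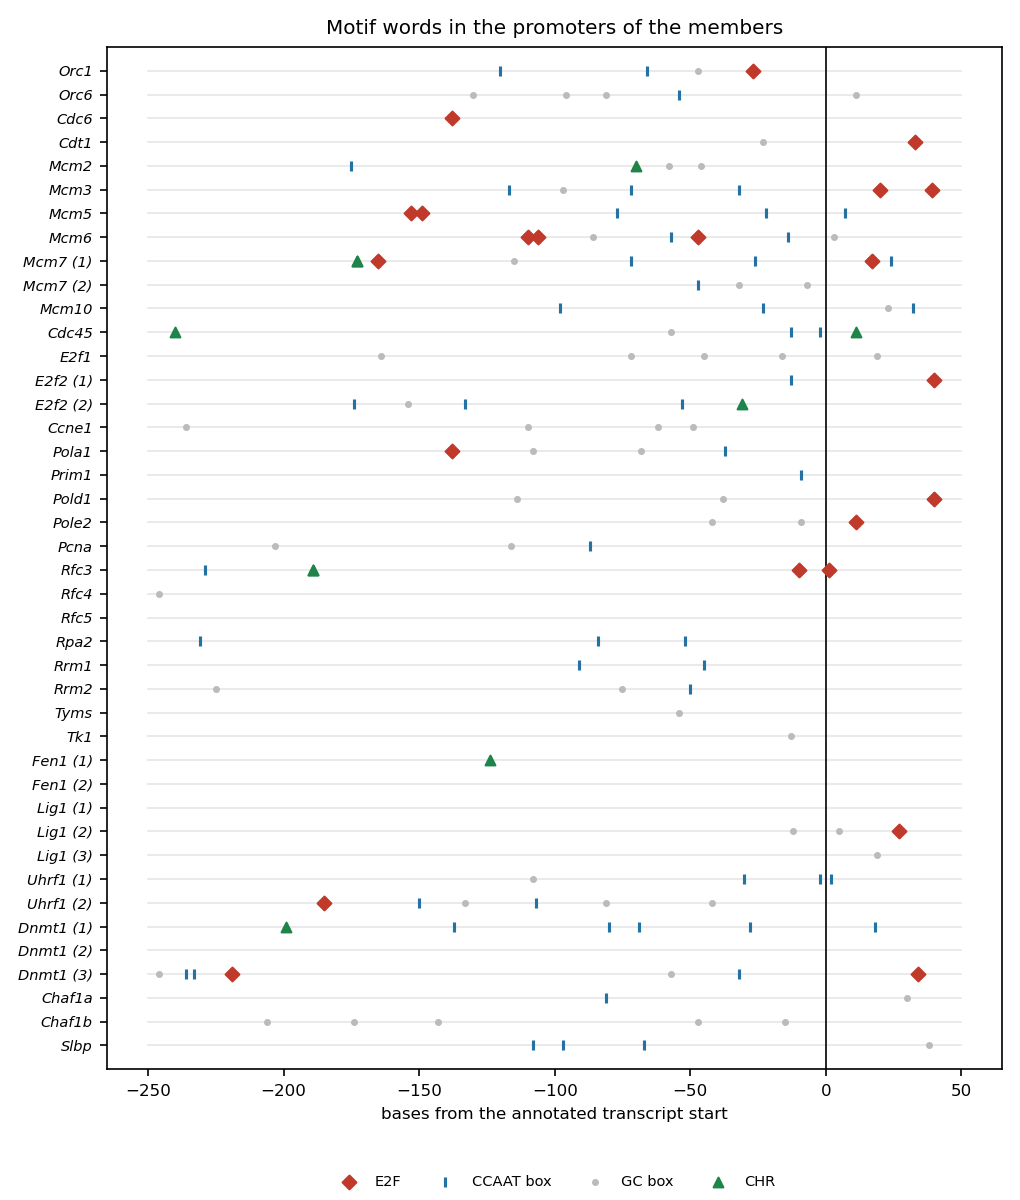
Positions of the 4 motifs (first base of each match) along the promoters of the 34 members with one, from 250 bases before to 50 after the annotated start at 0. Genes with several annotated starts have a row for each. E2F words (red diamonds) are seen in 15 genes.

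Origin licensing and helicase genes were lower with vemurafenib, 8 of 14 against DMSO and 8 of 14 against PLX7904, at medians of -0.42 and -0.30. The share of all genes called lower, for comparison with this and the later roles, was 5.21% against DMSO and 6.87% against PLX7904. Of the 6 subunits of the MCM2-7 ring 5 were called against each group, with differences from DMSO between -0.72 and -0.19. Mcm2 gave signals of 1141 and 1209 with vemurafenib, 1525 and 1731 with PLX7904 and 1934 with DMSO. It was 1.64 times lower (95% interval 1.38 to 1.96) against DMSO (log2 -0.72, SE 0.11, adjusted p = 0.00376) and 1.38 times lower (95% interval 1.20 to 1.60) against PLX7904 (log2 -0.47, SE 0.09, adjusted p = 0.00923), with both vemurafenib arrays below all others. The PLX7904 arrays of Mcm2 also lay below DMSO, and that difference was not called (log2 -0.25, SE 0.11, adjusted p = 0.752). Another Mcm2 probe set (mean signal 1268) read -0.02 for PLX7904 minus DMSO, and -0.41 for vemurafenib minus DMSO.

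Mcm3 had signals of 2469 and 2662 with vemurafenib, 3404 and 3765 with PLX7904 and 3661 with DMSO, and was lower against DMSO (log2 -0.51, SE 0.10, adjusted p = 0.00938) and PLX7904 (log2 -0.48, SE 0.08, adjusted p = 0.0038). Mcm5 had signals of 3603 and 3665 with vemurafenib, 5343 and 5320.0 with PLX7904 and 4889 with DMSO. Its difference from PLX7904 (log2 -0.55, SE 0.07, adjusted p = 5.56e-04) and that from DMSO (log2 -0.43, SE 0.08, adjusted p = 0.00818) were both called, and the 2 arrays of each compound nearly coincided. Mcm6 had signals of 4221 and 3876 with vemurafenib, 5278 and 4815 with PLX7904 and 5736 with DMSO, with calls against DMSO (log2 -0.50, SE 0.09, adjusted p = 0.0076) and PLX7904 (log2 -0.32, SE 0.08, adjusted p = 0.0204). Mcm4 and Mcm7 were called in 1 comparison each. Mcm4 had signals of 4205 and 3682 with vemurafenib, 4391 and 5120.4 with PLX7904 and 5610.2 with DMSO, lower against DMSO (log2 -0.51, SE 0.11, adjusted p = 0.0171). PLX7904 lay between on this probe set, and the difference between the compounds was not called (log2 -0.27, 95% interval -0.47 to -0.07, adjusted p = 0.0826). Another Mcm4 probe set, of mean signal 4460 against 4770 for that used, read -0.41 against DMSO and -0.42 against PLX7904. It read 0.0012 for PLX7904 minus DMSO. Mcm7, the brightest probe set of the ring, had signals of 12906 and 13506 with vemurafenib, 16653 and 15984 with PLX7904 and 15011 with DMSO, lower against PLX7904 (log2 -0.31, SE 0.05, adjusted p = 0.00545) and not called against DMSO (log2 -0.19, SE 0.07, adjusted p = 0.112). The 3 other Mcm7 probe sets past the filter read -0.43 to -0.25 against DMSO.

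Around the ring, Cdt1, the loading factor, had signals of 4832 and 5115 with vemurafenib, 6079 and 5975 with PLX7904 and 6077 with DMSO, and was lower against DMSO (log2 -0.29, SE 0.08, adjusted p = 0.0443) and PLX7904 (log2 -0.28, SE 0.06, adjusted p = 0.0188). Mcm10, which helps start the helicase, had signals of 712 and 707 with vemurafenib, 1029 and 999 with PLX7904 and 986 with DMSO, so that the vemurafenib arrays stood clear of the other 3. It was called against DMSO (log2 -0.47, SE 0.12, adjusted p = 0.0267) and PLX7904 (log2 -0.51, SE 0.09, adjusted p = 0.00595). Gins1, a subunit of the GINS complex, had signals of 1169 and 1379.7 with vemurafenib, 1904 and 1780.0 with PLX7904 and 1861 with DMSO, and was also called in both (log2 -0.55, SE 0.12, adjusted p = 0.0176 against DMSO, and log2 -0.53, SE 0.10, adjusted p = 0.00622 against PLX7904).

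Not all of this machinery was called. Orc1, the ATPase subunit of the origin recognition complex, had signals of 322 and 242 with vemurafenib, 307 and 363 with PLX7904 and 374 with DMSO, so that the vemurafenib arrays lay below DMSO and overlapped those of PLX7904 (log2 -0.42, SE 0.20, adjusted p = 0.231 against DMSO). Orc6, Cdc6, Cdc45 and Gins2 were not called in any comparison, with differences from DMSO of -0.21, -0.15, -0.20 and -0.12. Gins2 read 688 and 1098 on the 2 vemurafenib arrays, a spread wider than its difference from either other group, whereas another of its probe sets, past the filter, read -0.39. Its 95% interval against PLX7904 was -0.50 to 0.30, which holds the fall of Mcm2 against the same group.

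Some of these calls ended when an array was left out, which leaves 1 in its group, or when probe sets were chosen otherwise. Without vemurafenib replicate 1 the calls of Cdt1 (log2 -0.25, adjusted p = 0.242), Mcm10 (log2 -0.48, adjusted p = 0.0695) and Gins1 (log2 -0.43, adjusted p = 0.0693) against DMSO ended, as did Cdt1 against PLX7904 (log2 -0.24, adjusted p = 0.18). Without replicate 2 those of Cdt1 (log2 -0.33, adjusted p = 0.0766) and Mcm10 (log2 -0.47, adjusted p = 0.0677) against DMSO and of Mcm6 against PLX7904 (log2 -0.26, adjusted p = 0.134) ended, and the last also ended without PLX7904 replicate 1 (log2 -0.25, adjusted p = 0.0688). When a gene's probe sets were averaged, calls against DMSO ended for Cdt1, Gins1, Mcm3, Mcm5, Mcm6 and Mcm10, at log2 differences of -0.19, -0.42, -0.48, -0.45, -0.76 and -0.91. Calls against PLX7904 then ended for Cdt1, Gins1, Mcm5, Mcm6 and Mcm10, at -0.58, -0.29, -0.37, -0.62 and -0.76. Dim probe sets were averaged in, with mean signals of 4.77 for Cdt1, 77.95 for Gins1, 117.7 for Mcm3 and 55.84 for Mcm5. Those of Mcm6 (9.24) and Mcm10 (42.85 and 43.77) were dim too. The brightest unused probe sets of Cdt1, Mcm3, Mcm5 and Mcm6 read -0.24, -0.29, -0.62 and -0.52 against DMSO. Leaving out probe sets of suffix x, s or a ended those of Cdt1 (log2 -0.24, adjusted p = 0.183) and Mcm3 (log2 -0.40, adjusted p = 0.0531) against DMSO and of Cdt1 against PLX7904 (log2 -0.28, adjusted p = 0.0519). Mcm2 kept its call against DMSO in every alternative run except the one without the intensity trend.

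Of the 4 G1/S regulators none was called against DMSO. E2f1, the activating factor that drives this programme and is itself one of its targets, had signals of 391 and 440.4 with vemurafenib, 626 and 564 with PLX7904 and 583 with DMSO. Both vemurafenib arrays lay below the rest. It was lower than with PLX7904 (log2 -0.52, SE 0.12, adjusted p = 0.0185), and its difference from DMSO missed the threshold (log2 -0.49, SE 0.15, adjusted p = 0.062). Averaging the probe sets of E2f1, with a dim one of mean signal 21.46 among them, ended the call against PLX7904 (log2 -0.52). The call against PLX7904 ended without vemurafenib replicate 1 (log2 -0.43, adjusted p = 0.0995) or PLX7904 replicate 1 (log2 -0.44, adjusted p = 0.0834).

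E2f2, a second activating factor, was dim, with signals of 64.1 and 41.1 with vemurafenib, 74.2 and 117 with PLX7904 and 64.2 with DMSO, with 1 vemurafenib array almost level with DMSO (log2 -0.30, SE 0.46, adjusted p = 0.727 against DMSO, and log2 -0.82, SE 0.38, adjusted p = 0.192 against PLX7904). A probe set of E2f2 of similar brightness (mean signal 65.0) read -1.96 against DMSO and -2.49 against PLX7904. The E-type cyclins Ccne1 and Ccne2, partners of CDK2 at the start of S phase, were not called. Ccne1 had signals of 770.3 and 544 with vemurafenib, 494 and 746 with PLX7904 and 774 with DMSO, with replicates of either compound further apart than the groups. Ccne2 had signals of 1651 and 1507 with vemurafenib, 1284 and 2004 with PLX7904 and 1864 with DMSO, and its PLX7904 arrays lay on either side of all others. The 95% intervals against PLX7904 were -0.35 to 0.53 for Ccne1 and -0.39 to 0.34 for Ccne2; that of Ccne1 excludes the fall of Mcm2 against PLX7904, as does that of Ccne2.

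Of the 12 genes of polymerases, primase, clamp, clamp loader and single-strand binding, 7 were called against DMSO and 9 against PLX7904. All were lower, and the medians of the 12 were -0.41 and -0.43. The polymerase alpha-primase complex, which lays down the first primers, was called lower in 3 of its 4 measured subunits. The fourth, Pola2, which is not among the 41 genes, was not called (log2 -0.35, adjusted p = 0.119 against DMSO, and log2 -0.34, adjusted p = 0.0567 against PLX7904). Prim1, the catalytic primase subunit, had signals of 2894 and 2896 with vemurafenib, 4597 and 4379.9 with PLX7904 and 4245 with DMSO, with the vemurafenib arrays nearly identical. It was 1.47 times lower (95% interval 1.29 to 1.67) against DMSO (log2 -0.55, SE 0.08, adjusted p = 0.00305) and 1.55 times lower (95% interval 1.39 to 1.72) against PLX7904 (log2 -0.63, SE 0.07, adjusted p = 3.38e-04). Prim2, the regulatory primase subunit, had signals of 729 and 759.7 with vemurafenib, 1038 and 1053 with PLX7904 and 1316 with DMSO, and was called against DMSO (log2 -0.82, SE 0.11, adjusted p = 0.00173) and PLX7904 (log2 -0.49, SE 0.09, adjusted p = 0.00697). PLX7904 arrays of Prim2 lay below DMSO too, without a call (log2 -0.33, SE 0.11, adjusted p = 0.574). Its other probe set past the filter (mean signal 909.4) read 0.35 in that comparison, the opposite direction. Pola1, the catalytic subunit, had signals of 897 and 805 with vemurafenib, 1277 and 1352 with PLX7904 and 1274 with DMSO, called against DMSO (log2 -0.58, SE 0.12, adjusted p = 0.012) and PLX7904 (log2 -0.63, SE 0.10, adjusted p = 0.00237).

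Pole, the catalytic subunit of the leading-strand polymerase epsilon, had signals of 923 and 877 with vemurafenib, 1271 and 1256 with PLX7904 and 1433 with DMSO. It was lower against DMSO (log2 -0.67, SE 0.11, adjusted p = 0.00426) and PLX7904 (log2 -0.49, SE 0.09, adjusted p = 0.00595), and its second subunit Pole2 likewise. Pole2 had signals of 1381 and 1291 with vemurafenib, 1653 and 1699 with PLX7904 and 1755 with DMSO, with smaller differences from DMSO (log2 -0.39, SE 0.10, adjusted p = 0.0382) and PLX7904 (log2 -0.33, SE 0.08, adjusted p = 0.0296). Pold1, the catalytic subunit of the lagging-strand polymerase delta, had signals of 756 and 737 with vemurafenib, 1098 and 916 with PLX7904 and 997 with DMSO. It was called against PLX7904 (log2 -0.43, SE 0.11, adjusted p = 0.0288) and not against DMSO (log2 -0.42, SE 0.13, adjusted p = 0.0766), although both vemurafenib arrays were below the rest. A dimmer Pold1 probe set (mean signal 487.5) read -0.66 against DMSO and -0.53 against PLX7904.

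Within replication factor C, the loader of the PCNA clamp, the subunits differed in size. Rfc4 had signals of 1178 and 1199 with vemurafenib, 1994 and 1891 with PLX7904 and 1844 with DMSO, and was 1.55 times lower (95% interval 1.33 to 1.81) against DMSO (log2 -0.63, SE 0.10, adjusted p = 0.00391) and 1.63 times lower (95% interval 1.44 to 1.85) against PLX7904 (log2 -0.71, SE 0.08, adjusted p = 5.56e-04). Rfc5 had signals of 1765 and 1727 with vemurafenib, 2462 and 2258 with PLX7904 and 2325 with DMSO, called against DMSO (log2 -0.41, SE 0.10, adjusted p = 0.0261) and PLX7904 (log2 -0.43, SE 0.08, adjusted p = 0.00681). Rfc2 had signals of 2885 and 2976 with vemurafenib, 3957 and 3356 with PLX7904 and 3264 with DMSO, called against PLX7904 alone (log2 -0.31, SE 0.09, adjusted p = 0.0393), and its difference from DMSO was -0.16. Its 2 other probe sets read -0.54 and 0.15 against DMSO, and the second was the only one of the 37 unused probe sets past the filter to lie above 0. Rfc3 (-0.24) and the single-strand binding protein subunit Rpa2 (-0.21) were not called against DMSO, nor against PLX7904 (-0.22 and -0.28). Another Rfc3 probe set (mean signal 1944) read -0.53 against DMSO and -0.38 against PLX7904. Another of Rpa2 (mean signal 1921) read -0.29 and -0.38.

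Pcna itself, unlike Rfc4 and Rfc5, was not called in any comparison. It had signals of 21029 and 21503 with vemurafenib, 24152 and 21912 with PLX7904 and 19478 with DMSO, so that every treated array stood above DMSO, with log2 differences of 0.13 with vemurafenib (95% interval -0.03 to 0.28) and 0.24 with PLX7904 (0.08 to 0.40, adjusted p = 0.493), and neither was called. The direction with vemurafenib depended on normalization. After quantile normalization or cyclic loess all 40 members, Pcna among them, lay below 0 for vemurafenib minus DMSO. Between the compounds Pcna differed by -0.11 (95% interval -0.24 to 0.01), an interval that excludes a fall as large as that of Prim1, Rfc4 or Pola1.

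Among these genes, without vemurafenib replicate 1 the calls against DMSO of Pole2 (log2 -0.44, adjusted p = 0.0647) and Rfc5 (log2 -0.43, adjusted p = 0.0587) ended, and without replicate 2 likewise (log2 -0.35, adjusted p = 0.158 for Pole2, and log2 -0.40, adjusted p = 0.0761 for Rfc5). Against PLX7904, leaving out vemurafenib replicate 1 ended the calls of Pole2 (log2 -0.37, adjusted p = 0.0706), Pold1 (log2 -0.44, adjusted p = 0.0526) and Rfc2 (log2 -0.29, adjusted p = 0.133), and leaving out replicate 2 did so too (log2 -0.28, adjusted p = 0.193, log2 -0.41, adjusted p = 0.0694 and log2 -0.34, adjusted p = 0.0593 in that order). Without PLX7904 replicate 1 Pold1 (log2 -0.30, adjusted p = 0.119) and Rfc2 (log2 -0.20, adjusted p = 0.129) were not called, and without replicate 2 Pole2 was not (log2 -0.31, adjusted p = 0.0797). Prim2's other probe set past the filter read -0.21 against DMSO and -0.56 against PLX7904. When probe sets of suffix x, s or a were left out it stood for Prim2, and the call against DMSO ended (log2 -0.21, adjusted p = 0.359). Averaging a gene's probe sets ended calls against PLX7904 of Prim2 (-0.56), Pole2 (-0.40), Rfc2 (-0.27) and Pola1 (0.23). Against DMSO it ended those of Pole2 (-0.55) and Pola1 (0.17).

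Of 4 genes of nucleotide supply, 2 were called lower against DMSO and 3 against PLX7904. Tk1, the thymidine salvage kinase whose transcript peaks in S phase, had the lowest log2 difference from PLX7904 of the members called. It had signals of 1311 and 1284 with vemurafenib, 2376 and 2067 with PLX7904 and 2108 with DMSO, and was 1.71 times lower (95% interval 1.48 to 1.96) against PLX7904 (log2 -0.77, SE 0.09, adjusted p = 5.56e-04) and 1.62 times lower (95% interval 1.37 to 1.93) against DMSO (log2 -0.70, SE 0.11, adjusted p = 0.00374). The vemurafenib arrays of Tk1 agreed closely and lay far below the others.

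Rrm1 and Rrm2 encode the large and small subunits of ribonucleotide reductase, which makes deoxynucleotides. Rrm1 had signals of 2352 and 2492 with vemurafenib, 3771 and 3380.0 with PLX7904 and 3097 with DMSO, lower against PLX7904 (log2 -0.56, SE 0.08, adjusted p = 0.00167) and DMSO (log2 -0.35, SE 0.10, adjusted p = 0.047). Rrm2 had signals of 8954 and 9037 with vemurafenib, 10534 and 10216 with PLX7904 and 10271 with DMSO, with a small difference that was called against PLX7904 (log2 -0.21, SE 0.06, adjusted p = 0.0372) and not against DMSO (log2 -0.19, SE 0.07, adjusted p = 0.111). Other Rrm2 probe sets (mean signals 2945 and 4959) showed almost no difference of vemurafenib from DMSO (-0.06 and -0.0049). Against PLX7904 they read -0.27 and -0.19. Tyms, thymidylate synthase, was dim, with signals of 69 and 78.9 with vemurafenib, 65.4 and 70.4 with PLX7904 and 136 with DMSO, so that DMSO stood above all 4 treated arrays and the compounds overlapped. Its difference from DMSO was large and imprecise with vemurafenib (log2 -0.85, SE 0.36, adjusted p = 0.166) and with PLX7904 (log2 -0.97, SE 0.36, adjusted p = 0.624), and neither was called. Another Tyms probe set of similar brightness (mean signal 88.99) read -0.99 with vemurafenib and -0.43 with PLX7904, each against DMSO. Between the compounds it read -0.57, where the probe set used read 0.12.

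The Rrm1 call against DMSO ended without vemurafenib replicate 1 (log2 -0.31, adjusted p = 0.178) or replicate 2 (log2 -0.40, adjusted p = 0.0566). That of Rrm2 against PLX7904 ended without either vemurafenib replicate (log2 -0.20, adjusted p = 0.225 without the first, log2 -0.21, adjusted p = 0.159 without the second) and without PLX7904 replicate 1 (log2 -0.18, adjusted p = 0.0697). It also ended when probe sets of suffix x, s or a were left out (log2 -0.19, adjusted p = 0.154), or when its probe sets were averaged (log2 -0.22). Averaging the 3 probe sets of Rrm1, 1 of which had a mean signal of 3.90, turned its difference from DMSO to 0.10. The brighter of its unused probe sets read -0.45.

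In chromatin assembly and strand maturation, Uhrf1 and Lig1 were called in both comparisons. Uhrf1, which recognises hemimethylated DNA behind the fork and recruits the maintenance methyltransferase, had signals of 1819 and 1849 with vemurafenib, 2446 and 2568 with PLX7904 and 3115 with DMSO. It was 1.70 times lower (95% interval 1.47 to 1.96) against DMSO (log2 -0.76, SE 0.09, adjusted p = 8.51e-04), and the PLX7904 arrays lay between (log2 -0.31, SE 0.09, adjusted p = 0.493 for PLX7904 against DMSO). The difference between the compounds was called (log2 -0.45, SE 0.08, adjusted p = 0.0041). A dimmer Uhrf1 probe set (mean signal 387.4) read 0.02 for PLX7904 minus DMSO, and -0.43 for vemurafenib minus DMSO. Lig1, the ligase that joins Okazaki fragments, had signals of 1032 and 1119 with vemurafenib, 1692 and 1874 with PLX7904 and 1646 with DMSO, and was 1.65 times lower (95% interval 1.43 to 1.91) against PLX7904 (log2 -0.73, SE 0.09, adjusted p = 8.28e-04) and 1.53 times lower (95% interval 1.28 to 1.82) against DMSO (log2 -0.61, SE 0.11, adjusted p = 0.00796).

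Dnmt1, the maintenance DNA methyltransferase, had signals of 2751 and 2850.1 with vemurafenib, 3353 and 3349 with PLX7904 and 3299 with DMSO, called against PLX7904 (log2 -0.26, SE 0.07, adjusted p = 0.0368) and not against DMSO (log2 -0.24, SE 0.09, adjusted p = 0.116). Chaf1b, a subunit of the histone chaperone CAF-1, had signals of 730.0 and 753 with vemurafenib, 957 and 947 with PLX7904 and 966 with DMSO, also called against PLX7904 (log2 -0.36, SE 0.09, adjusted p = 0.031) and not against DMSO (log2 -0.38, SE 0.12, adjusted p = 0.0636). Each of these 2 calls ended when any of the 4 treated arrays was left out (adjusted p between 0.0607 and 0.26 for Dnmt1 at log2 differences of -0.28 to -0.23, and between 0.071 and 0.167 for Chaf1b at -0.38 to -0.34). Fen1, the flap nuclease of Okazaki fragments, was not called, at -0.07 against DMSO and -0.26 against PLX7904 (95% interval -0.47 to -0.05). Slbp, which binds the stem-loop of histone mRNAs, had signals of 5912 and 5864 with vemurafenib, 6256 and 6311 with PLX7904 and 5881 with DMSO, and its intervals, -0.16 to 0.17 against DMSO and -0.23 to 0.04 against PLX7904, exclude a fall of the size of Mcm2's. A dimmer Slbp probe set (mean signal 184) read -0.64 and -0.16.

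A second reading of the same arrays came from probe sets that were not used. Of the members, 28 had at least 1 other probe set past the filter, 37 in all. Of these, 36 lay below 0 for vemurafenib minus DMSO and all 37 for vemurafenib minus PLX7904, while 17 lay below 0 for PLX7904 minus DMSO. Over all genes tested 57.8%, 56.0% and 53.2% lay below 0 in the same order. They share the hybridised RNA with the probe sets used, so they check the probes and not the samples.

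**Figure D4:**
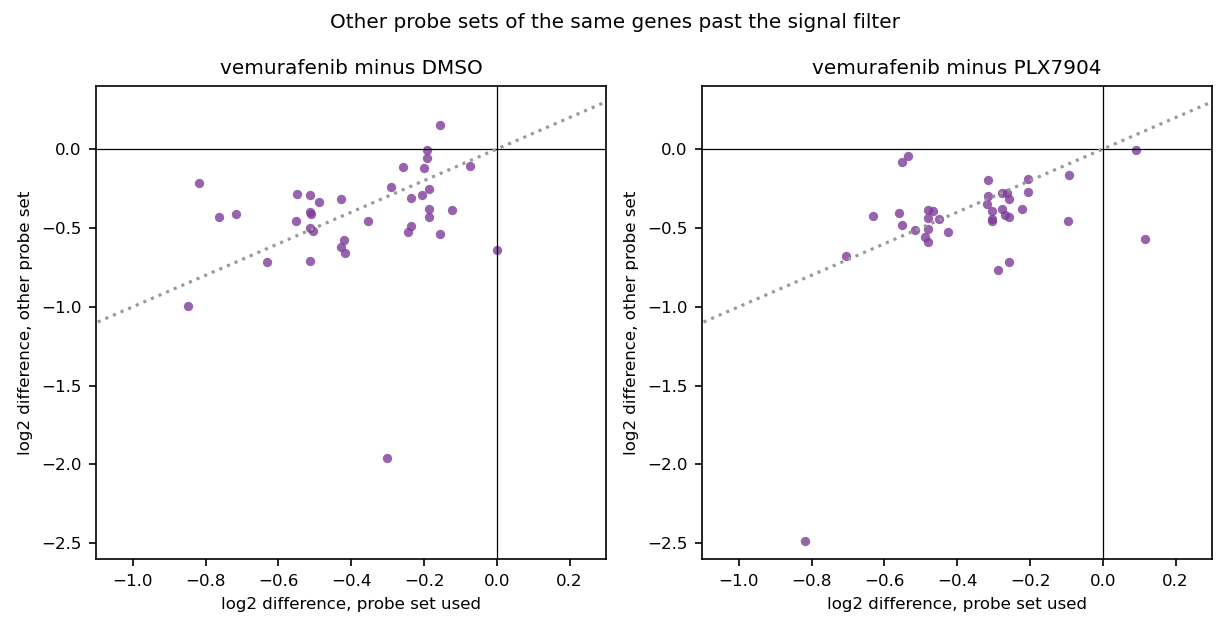
Log2 difference of each of the 37 other probe sets past the filter (vertical axis) against that of the probe set used for the same gene (horizontal axis), for vemurafenib minus DMSO on the left and vemurafenib minus PLX7904 on the right. The dotted line marks equal values. All but 1 point on the left and all points on the right lie below 0, and the lowest point in both is E2f2.

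Of 40 further replication genes listed, 39 passed the filter, and 9 of them fell and 1 rose against DMSO (median -0.29), while 29 were not called, with 21 lower and 1 higher against PLX7904 (median -0.30). Of all genes tested, 5.21% were called lower and 5.43% higher against DMSO, and 6.87% and 6.43% against PLX7904. These shares apply to the lists below too. Mcm8, an MCM relative that acts in repair, had signals of 239 and 255 with vemurafenib, 365 and 357 with PLX7904 and 435 with DMSO (log2 -0.81, SE 0.16, adjusted p = 0.0112 against DMSO). Atad2, a bromodomain ATPase, had signals of 2732 and 3326 with vemurafenib, 4746 and 4246 with PLX7904 and 4876 with DMSO (log2 -0.69, SE 0.12, adjusted p = 0.00575 against DMSO), and Pold3, a polymerase delta subunit, had signals of 296 and 267 with vemurafenib, 349 and 283 with PLX7904 and 444 with DMSO (log2 -0.65, SE 0.18, adjusted p = 0.047). For Pold3 1 PLX7904 array lay within the range of the vemurafenib arrays. The gene that rose, Pold4, the smallest polymerase delta subunit, had signals of 2449 and 2552 with vemurafenib, 1361 and 1321 with PLX7904 and 1205 with DMSO, which is 2.07-fold the DMSO level (log2 1.05, SE 0.10, adjusted p = 1.7e-04). Both vemurafenib arrays of Pold4 stood far above the other 3.

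Of 24 measured genes of the E2F, RB and CDK circuit, 4 fell and 0 rose against DMSO (median -0.14), and 7 fell against PLX7904 (median -0.16). The S phase cyclin Ccna2 had signals of 2303 and 2174 with vemurafenib, 3509 and 3845 with PLX7904 and 3351 with DMSO (log2 -0.58, SE 0.10, adjusted p = 0.00456 against DMSO), the RB relative Rbl1 had signals of 1227 and 1310.1 with vemurafenib, 1847 and 2183 with PLX7904 and 1863 with DMSO (log2 -0.55, SE 0.12, adjusted p = 0.0168) and the MYB factor Mybl2 had signals of 468 and 491 with vemurafenib, 587 and 696 with PLX7904 and 687 with DMSO (log2 -0.52, SE 0.15, adjusted p = 0.048). Of 12 measured genes of repair at the fork, 6 fell and 0 rose in each comparison with vemurafenib (medians -0.46 against DMSO and -0.40 against PLX7904). Brca2, which acts in homologous recombination, had signals of 331 and 337 with vemurafenib, 569 and 614 with PLX7904 and 589 with DMSO (log2 -0.81, SE 0.14, adjusted p = 0.00578), and Brca1, of the same pathway, had signals of 625 and 618 with vemurafenib, 806 and 947 with PLX7904 and 946 with DMSO (log2 -0.60, SE 0.13, adjusted p = 0.0181). In both genes the vemurafenib arrays lay below the other 3, as in 27.6% of all genes tested.

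The G2/M and mitosis genes, the next stage of the cycle, gave similar medians. Of 27 measured, 17 fell against DMSO (median -0.41) and 23 against PLX7904 (median -0.47), with 0 higher in either. Of all genes tested, 5.21% and 6.87% were called lower in that order. The spindle motor Kif11 had signals of 674 and 826 with vemurafenib, 1228 and 1312 with PLX7904 and 1466 with DMSO (log2 -0.97, SE 0.14, adjusted p = 0.00192 against DMSO). Nusap1, a spindle protein, had signals of 1546 and 1504 with vemurafenib, 2649 and 2595 with PLX7904 and 2512 with DMSO (log2 -0.72, SE 0.09, adjusted p = 0.00128), and the checkpoint kinase Bub1b had signals of 871 and 835 with vemurafenib, 1351 and 1099 with PLX7904 and 1317 with DMSO (log2 -0.62, SE 0.14, adjusted p = 0.0168). In each of the 3 both vemurafenib arrays lay below the rest, as in 27.6% of all genes tested. With PLX7904 against DMSO none of the genes in these lists was called. Their medians then were 0.03 for further replication genes, 0.03 for the E2F, RB and CDK circuit, -0.09 for repair and 0.09 for G2/M, beside 0.02 for the members. Whether the lists differ from each other was not tested.

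**Figure D5:**
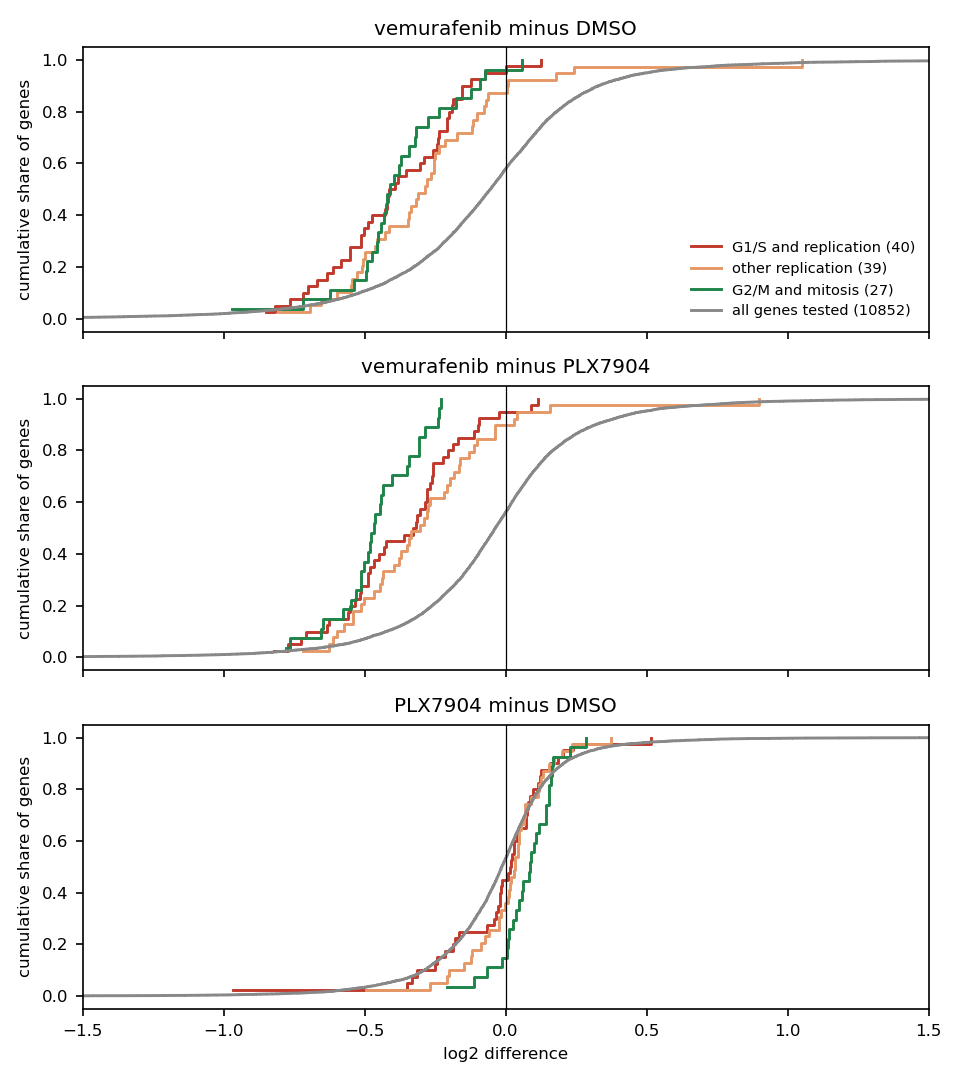
Cumulative share of genes (vertical axis) at or below each log2 difference (horizontal axis) for the 40 members, 39 other replication genes, 27 G2/M genes and all 10852 genes tested, in the 3 comparisons. With vemurafenib against DMSO or PLX7904 the curves of the 3 lists lie left of that of all genes over most of the range, and with PLX7904 against DMSO the members' curve runs close to it and that of G2/M genes to its right over most of the range.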

How the data were processed

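Transcript levels were measured on 5 Affymetrix arrays. The values are the intensity of each of 45101 probe sets on a linear scale, deposited by the authors and made with MAS5 per the submitters' processing notes, with no version given there. Every array has the same trimmed mean of about 500.0, and no detection calls entered the tests.

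Gene names came from the platform annotation. There were 34945 probe sets with 1 symbol, 932 with several (not used) and 64 control probe sets (left out). Log2 of the signal plus 3.34 (the 10th percentile of all values) was fitted with limma 3.58.1 in R 4.3.3 to all 5 arrays as 3 group means, with an intensity trend (2 residual and 8.27 prior degrees of freedom). The filter kept 10852 genes whose mean over groups reached 47.4, the overall median. Tests were two-sided and adjusted by Benjamini-Hochberg over these genes. Errors are standard errors and 95% intervals of that fit. Members and lists were chosen with earlier results of these data known. Every member called in any comparison, and the 3 uncalled with the largest difference (Tyms, E2f2 and Orc1), is given on all arrays; further uncalled members given on all arrays were chosen after their values were seen. From each other list up to 3 called genes at either end are named, except 1 that is not reported here. The fit was tested on simulated data, 17 alternatives were run, and figures used Python 3.11.15 and matplotlib 3.10.9. No shift shared by arrays of the same replicate number was seen (r = -0.00711 between the compounds' replicate differences over genes). Whether the arrays were handled in pairs is not known.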

Additional observations from a re-analysis of the deposited data

How the results depend on the processing

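The median over members stayed below 0 in both vemurafenib comparisons under all 17 alternatives where it was computed. Members called against DMSO numbered 19 and against PLX7904 25; they numbered 10 and 14 with the mean of all probe sets, 7 and 9 with median centring, and 0 and 0 without the intensity trend, and with the other alternatives they stayed within 1.5 times. Of all genes, 1154 were called against DMSO, but 657 without the filter, 43 without the trend and 443 with the mean of all probe sets, and 1443 against PLX7904, but 35 without the trend and 660 with that mean. For PLX7904 against DMSO 0 genes were called, but 3 with the filter at the 75th percentile, 5 with median centring, 3 with robust eBayes, 3 without probe sets of suffix x, s or a, and 4 with the replicate block. The replicate block gave 16 members against DMSO and 25 against PLX7904, and ended the calls of Pole2 (-0.38), Rfc5 (-0.37) and Rrm1 (-0.34) against DMSO. Leaving out 1 array gave 13 to 20 members and 880 to 1507 genes against DMSO, 18 to 26 and 900 to 1288 against PLX7904 (900 without vemurafenib replicate 1), and 0 and 0 to 29 for PLX7904 against DMSO (29 without vemurafenib replicate 1 and 27 without replicate 2). An arm left with 1 array is assumed to vary like the others. With the mean of all probe sets 5 differences changed sign: Pola1 (0.17 against DMSO and 0.23 against PLX7904), Rrm1 (0.10 and 0.0051) and Chaf1b (0.28 against PLX7904). The probe sets averaged in had mean signals of 8.74 for Pola1, 3.90 and 1050 for Rrm1, and 31.2 for Chaf1b.

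Calls kept in every alternative run for the gene, but that without the trend, were those of Mcm2, Pole, Rfc4, Tk1, Lig1 and Uhrf1 against DMSO and of Mcm3, Prim1, Rfc4, Tk1 and Lig1 against PLX7904. Pole has no probe set left without suffix x, s or a, so that alternative was not run for it.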
